A study of Caenorhabditis elegans with 2 samples.

Results

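Autosomal single-direction promoter peaks are sites in the genome of Caenorhabditis elegans where a chromatin immunoprecipitation (ChIP) peak lay in front of genes read in 1 direction only. A peak was taken if it was on one of the 5 autosomes, if its summit, the point of highest enrichment, was over 100 bp from any tRNA gene, and if that summit was at most 1000 bp upstream or 200 bp downstream of the 5' end of protein-coding genes on 1 strand and of none on the other strand. In the study's list of reproducible peaks 613 met this rule (27%) and 1655 did not, 486 of these because they are on the X chromosome. Genes on the plus strand had 318 of them and genes on the minus strand 295. From the 1782 autosomal peaks, 79 were set aside by distance to tRNA genes, 786 lay in no coding promoter window, and 304 lay in windows on both strands and are called divergent promoter peaks here. Of those set aside near tRNA genes, 18 would otherwise have counted as single-direction.

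All libraries came from 1 group. Whole young adult animals of 72 hours were used, with their sex given as males and females pooled. They were of strain OP214, which carries the mutation unc-119(ed3) on chromosome III and the transgene wgIs214. The transgene encodes K12H6.12 with a GFP-FLAG tag at its C-terminal end, in 1 stable transgenic line. Animals had been synchronised by bleaching and starvation as L1 larvae, and chromatin was sonicated and pulled down with an antibody to GFP. There were 2 biological replicates, numbered 2 and 3, with nothing said on when each was collected. No other group was available and the control alignment was not analysed here, so whether these peaks mark sites of K12H6.12 was not tested. With 2 replicates an exact two-sided test over samples cannot give a p below 0.5, and no p-values are given. Signal is the score that the authors' peak caller gave each peak, on a scale that the sources used here do not state. It is given for the list called on both replicates together unless a replicate is named, and values of different lists are not on 1 scale. Read totals are unknown, so every 95% interval below covers counting error over peaks or genes only, and neighbouring peaks are not independent.

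In C. elegans the promoter of a gene lies mostly in the short intergenic sequence before it. Many mRNAs of this animal receive a spliced leader in place of their first transcribed bases, so the annotated 5' end often marks the splice acceptor and transcription starts further upstream. Some genes are transcribed in operons, runs of closely spaced genes on the same strand that share the promoter of the first. Neighbouring genes can also point away from each other and share the sequence between them, and the rule above leaves those shared windows out.

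As a set the single-direction peaks were rich in G and C and in a GA repeat, while the sequences under the strongest varied in both. The 7 of highest signal on chromosomes II to V that overlap no annotated exon within 75 bp to either side of the summit are shown first, followed by the 3 of highest signal, under the same limits, that hold the 9-base motif CTGCGTCTC. The second set was chosen after its values were seen. Each sequence runs 5' to 3' on the strand of the gene it precedes, from the RefSeq sequence of WBcel235 (ce11). Capitals mark every match to GAGAGA or CTGCGTCTC on either strand, so TCTCTC and GAGACGCAG are capitals too, and overlapping matches are merged.
rpl-3: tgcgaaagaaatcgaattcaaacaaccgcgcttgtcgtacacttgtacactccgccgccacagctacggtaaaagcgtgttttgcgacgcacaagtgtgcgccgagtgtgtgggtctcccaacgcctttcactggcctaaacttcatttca
cdc-48.1: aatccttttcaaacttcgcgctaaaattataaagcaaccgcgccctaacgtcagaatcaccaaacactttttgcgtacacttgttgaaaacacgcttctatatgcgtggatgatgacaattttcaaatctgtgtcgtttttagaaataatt
cbp-1: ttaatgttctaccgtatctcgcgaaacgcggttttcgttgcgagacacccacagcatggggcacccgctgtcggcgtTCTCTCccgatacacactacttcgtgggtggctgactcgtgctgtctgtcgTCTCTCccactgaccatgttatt
sor-1: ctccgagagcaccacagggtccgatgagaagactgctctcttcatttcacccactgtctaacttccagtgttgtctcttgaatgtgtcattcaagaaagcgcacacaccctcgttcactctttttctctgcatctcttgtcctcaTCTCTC
tos-1: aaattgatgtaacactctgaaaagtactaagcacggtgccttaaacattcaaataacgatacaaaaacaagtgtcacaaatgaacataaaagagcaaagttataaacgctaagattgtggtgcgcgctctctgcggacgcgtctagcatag
rpl-35: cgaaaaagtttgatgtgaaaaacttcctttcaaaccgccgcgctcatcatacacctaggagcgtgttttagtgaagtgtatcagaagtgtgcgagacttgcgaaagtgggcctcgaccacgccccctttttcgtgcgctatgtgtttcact
K12H4.5: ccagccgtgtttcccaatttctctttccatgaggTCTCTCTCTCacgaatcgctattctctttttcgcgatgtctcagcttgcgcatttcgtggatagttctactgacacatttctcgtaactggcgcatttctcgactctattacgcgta
sec-61.G: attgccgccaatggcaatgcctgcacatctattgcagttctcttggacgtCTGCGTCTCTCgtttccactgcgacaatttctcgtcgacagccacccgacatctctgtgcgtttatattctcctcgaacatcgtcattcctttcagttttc
Y97E10C.1: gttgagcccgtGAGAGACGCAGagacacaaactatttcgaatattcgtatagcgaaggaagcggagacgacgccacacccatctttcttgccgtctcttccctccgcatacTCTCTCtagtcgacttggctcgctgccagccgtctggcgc
B0348.10: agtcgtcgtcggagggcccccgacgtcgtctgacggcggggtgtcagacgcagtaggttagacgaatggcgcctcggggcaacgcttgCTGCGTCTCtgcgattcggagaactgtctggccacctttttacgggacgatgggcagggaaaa
In the order shown the windows are rpl-3 at chrIII:3867503-3867653 (plus strand), cdc-48.1 at chrII:10563490-10563640 (minus strand), cbp-1 at chrIII:9765592-9765742 (plus strand), sor-1 at chrIII:8417534-8417684 (plus strand), tos-1 at chrV:9344265-9344415 (minus strand), rpl-35 at chrIII:7854613-7854763 (plus strand), K12H4.5 at chrIII:8043905-8044055 (plus strand), sec-61.G at chrV:10897261-10897411 (minus strand), Y97E10C.1 at chrV:7728274-7728424 (plus strand) and B0348.10 at chrV:8850-9000 (minus strand). The summit is the middle base of each. Among the first 7, cbp-1, sor-1 and K12H4.5 hold the GA repeat, with 2, 1 and 3 matches, and rpl-3, cdc-48.1, tos-1 and rpl-35 hold neither motif. The match of sor-1 is at the very end of its window. G and C made up 51.7% of the rpl-3 window, 55% of that of cbp-1, 36.4% of that of cdc-48.1 and 39.1% of that of tos-1.

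The strongest single-direction peak belonged to the ribosomal protein gene rpl-3, with the summit 276 bp before its 5' end. The signal was 1112, with 538 in replicate 2 and 578 in replicate 3. It was followed by Y39B6A.43 with a signal of 768 (381 in replicate 2 and 388 in replicate 3) and by the histone H4 gene his-37 with 730 (385 and 339 in the same order). Histone H4 genes have several near-identical copies, and how reads matching more than 1 place were handled is not given in the sources used here. Then came cdc-48.1, whose product is an ATPase that unfolds ubiquitin-tagged proteins, with 691 (342 in replicate 2, 351 in replicate 3), and cbp-1, which encodes a histone acetyltransferase, with 677 (379 in replicate 2, 296 in replicate 3). These 5 were high in both replicates.

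The other 20 of the 25 strongest are grouped by what their genes are known to do, where that is known. The peak of rpl-35, another gene of the large ribosomal subunit, had a signal of 598 and that of hsp-1, a constitutive Hsp70 chaperone, 556. Genes of cytochrome c oxidase subunits had 494 (cox-5B) and 472 (cox-5A), and sec-61.G, a subunit of the channel through which proteins enter the endoplasmic reticulum, had 434. Genes known for regulation of chromatin or RNA were sor-1 (650), which keeps Hox genes silent, swsn-7 (510), a SWI/SNF chromatin remodelling subunit, ntl-2 (479) of the CCR4-NOT deadenylase complex, the helicase gene mog-4 (428) and lin-59 (411), a SET-domain histone methyltransferase. Others were Y39E4B.6 (663), tos-1 (616), W06H8.6 (571), K12H4.5 (558), H41C03.3 (534), egg-5 (513), a pseudophosphatase gene of egg activation, eat-16 (458), a regulator of G protein signalling, the zinc finger gene ztf-7 (440), F59C6.18 (417) and C47E8.4 (405). In this set the replicate 2 signal had a median of 298 and the replicate 3 signal one of 242. A peak of each replicate covered the summit of 24 of the 25. The exception was eat-16, with 325 in replicate 2 and no peak in replicate 3 over the summit.

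**Figure D1:**
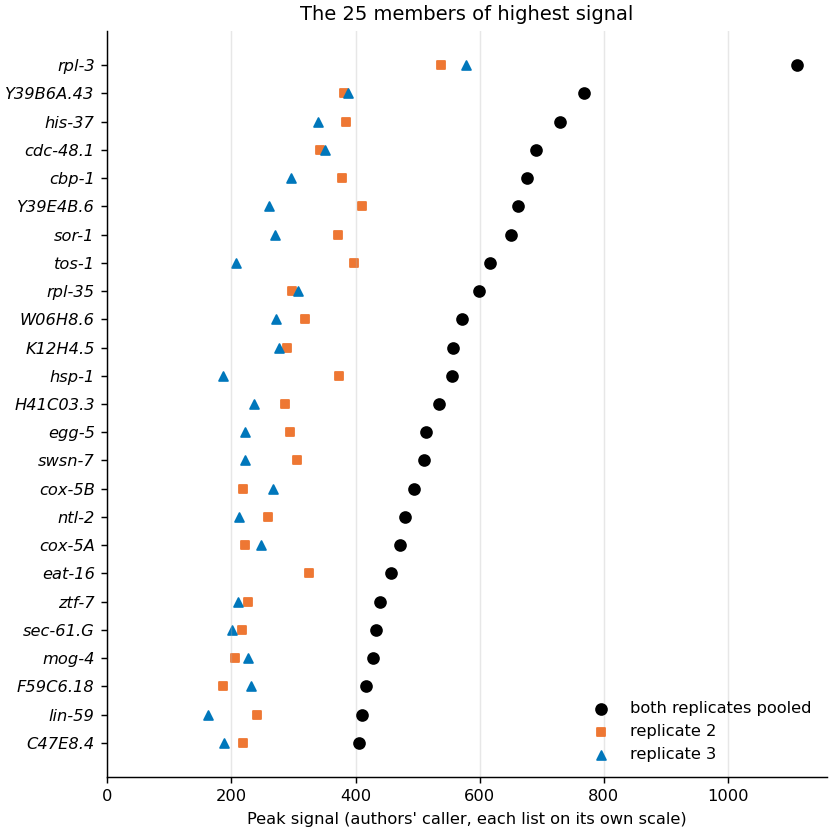
Peak signal on the x axis for the 25 single-direction promoter peaks of highest signal, one row for each, named by the nearest gene served. Black circles are the list called on both replicates pooled, orange squares replicate 2 and blue triangles replicate 3; rpl-3 stands apart at 1112, and eat-16 has no replicate 3 point.

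Most single-direction peaks were much weaker than these. The signal ranged between 98.1 and 1112, with quartiles of 115, 145 and 196 (95% interval of the median 139 to 153). It was over 200 at 142 peaks, over 300 at 52, over 400 at 25 and over 500 at 15. The whole reproducible list began at 97.9 and had a median of 147, so the single-direction peaks reached down to its lower limit. In replicate 2 the quartiles were 63.9, 82.4 and 114, and in replicate 3 they were 52.3, 66.8 and 92.4. By chromosome there were between 100 peaks (IV) and 142 (I), and the lowest median signal was 139 (II).

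Single-direction peaks had a median signal of 145 (139 to 153), divergent promoter peaks one of 152 (146 to 165), distal intergenic peaks one of 150 (138 to 160) and intronic peaks outside promoters one of 140 (132 to 149). The intervals overlap throughout. A signal over 300 was found at 8.48% of the 613 single-direction peaks, 13.5% of the 304 divergent, 6.80% of the 338 distal intergenic and 8.28% of the 290 intronic ones. Whether these classes differ was not tested, because peaks are not replicates.

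Summits stood mostly upstream of the annotated 5' end. Of the 613, 562 were upstream (91.7%, 95% Wilson interval 89.2 to 93.6), 2 exactly at the end and 49 downstream. Since the rule allows 1000 bp on 1 side and 200 bp on the other, an excess upstream is partly given by the rule. Within the window the positions were uneven. The upstream distance had quartiles of 138, 274 and 539 bp, counting downstream positions as negative, and the interval of the median was 251 to 303 bp. From 300 bp upstream to the end itself, a stretch of 25.1% of the window, lay 279 summits (45.5%, 41.6 to 49.5). For divergent peaks the median distance to the nearest 5' end was 150 bp, a shorter distance that the rule favours, since 2 ends must be within reach. The summit was placed at the exact midpoint of the interval for 475 single-direction peaks, and 470 had the list's standard width of 456 bp, so a distance is known no better than the caller's placing of summits. Peaks of the standard width had a median signal of 129 and the other 143 peaks one of 263.

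**Figure D2:**
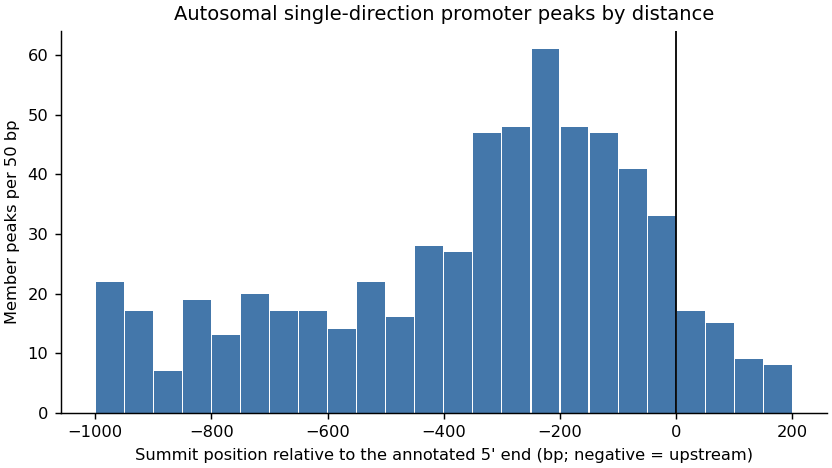
Number of single-direction promoter peaks on the y axis by the position of the summit relative to the annotated 5' end on the x axis, in steps of 50 bp, with upstream positions negative and the end marked by a line. Counts are highest within about 350 bp upstream and low after the end, where 51 of the 613 summits lie at the end or beyond it.

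Signal changed little with distance. The median signal was 139 at over 750 bp upstream (78 peaks), 165 at over 500 and up to 750 bp (90), 154 at over 250 and up to 500 bp (166), 141 at over 100 and up to 250 bp (154), 143 within the last 100 bp (74) and 123 at the end or downstream (51). Across the 613 peaks the Spearman correlation of signal with upstream distance was 0.0871. The 25 strongest had a median of 410 bp upstream, with 9 of them within 300 bp of the end and 8 over 500 bp away, among them cbp-1 at 842 bp and H41C03.3 at 978 bp. Summits within 25 bp of the end numbered 25, with a median signal of 152. The strongest were cox-5B, 8 bp upstream (494), scpl-3, 2 bp downstream (316), ints-4 of the Integrator complex, 22 bp downstream (315), Y38C1AA.12, 3 bp upstream (218), and Y43F8C.3, 15 bp downstream (205).

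The 49 summits past the 5' end had a median signal of 128, against 148 for the 562 upstream. Y18D10A.4 led them, 105 bp downstream and in a coding exon, with 332. Its replicate signals were 207 in replicate 2 and 29.7 in replicate 3, a ratio of 6.98 where the median ratio of all was 1.2. The next were scpl-3 and ints-4 (above), xbp-1, the transcription factor of the unfolded protein response, 27 bp downstream with 289 (160 in replicate 2 and 137 in replicate 3), and F47D12.9, 120 bp downstream with 229 (124 in replicate 2 and 100 in replicate 3). All 4 of these had the summit in the 5' UTR.

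At the limits of the rule, the outermost peaks inside were ahcy-1 at 1000 bp (179), hint-3 at 997 bp (193) and har-1 at 995 bp (118), and the nearest outside were nol-58 at 1004 bp (107), W05H12.1 at 1008 bp (99.0) and T23G4.127 at 1009 bp (107). Downstream, his-72 at 199 bp (110), hrpk-1 at 197 bp (191) and ssup-72 at 176 bp (98.6) were inside, and a summit of tba-2 at 203 bp (166 in replicate 2 and 48.8 in replicate 3), pyk-1 at 215 bp (100) and rla-1 at 224 bp (158) outside. Another summit of tba-2 met the rule. The single-direction peaks closest to a tRNA gene were those of hrpr-1 (411 bp from it, signal 98.1), F22B7.9 (516 bp, 113) and C47E8.11 (935 bp, 129), and the last ones left out by that limit were K05F1.6 (86 bp, 181), nfm-1 (59 bp, 98.5) and Y54G2A.45 (51 bp, 106). Between 86 and 411 bp from a tRNA gene there was no such peak, so small shifts of that limit would not change the set.

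By the annotation, 457 summits (74.6%, 71.0 to 77.8) lay between genes. Another 51 (8.32%) were inside a gene for a non-coding RNA, 44 (7.18%) in an intron, 35 (5.71%) in a 5' UTR, 18 (2.94%) in a coding exon, 7 (1.14%) in a 3' UTR and 1 in a pseudogene. The median signal was 146 between genes, 162 in non-coding RNA genes and 108 in coding exons. Of the summits in gene bodies, 49 were inside the gene they serve and 68 inside another coding gene.

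Small RNA genes other than tRNA genes were not excluded by the rule, and 26 summits lay within 100 bp of one. Of these, 17 were near a snoRNA gene, which guides modification of ribosomal and other RNAs, 9 near a snRNA or spliced leader gene and 0 near a microRNA gene. Their median signal was 198 (104 in replicate 2 and 104 in replicate 3) at a median of 556 bp upstream of the coding gene, against 143 for the other single-direction peaks. Examples are H41C03.3 (534; 286 in replicate 2 and 236 in replicate 3), 66 bp from the spliced leader gene sls-2.1, and egg-5 (513; 295 in replicate 2 and 221 in replicate 3), 16 bp from sls-2.4. Others were F59C6.18 (417), 91 bp from the snoRNA gene F59C6.15, and the splicing factor gene snr-4 (276), 51 bp from the snRNA gene T11F9.15. Which of the genes such a peak belongs to cannot be told apart from position.

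The 613 peaks served 601 of the 17242 autosomal protein-coding genes (3.49%). Peaks that served 1 gene numbered 588 (95.9%), and 25 served 2 genes of the same strand, the most that any did. The strongest of the 25 stood 193 bp upstream of sec-61.G and 793 bp upstream of F32D8.13 (434), 58 bp upstream of tub-2 and 160 bp of Y71G12A.5 (361), and 45 bp upstream of egl-30, a G protein alpha subunit gene, and 164 bp of C53H9.4 (361). Any promoter peak at all, near a tRNA gene or divergent included, was found at 1226 autosomal coding genes, so the 601 made up 49.0% of them, and 5 of the 601 also had a divergent peak. A name given by gene class, as opposed to a clone-based name alone, was held by 422 of the 601 (70.2%) and by 55.4% of all autosomal coding genes.

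No gene had 3 or more peaks, and 37 had 2. In 31 of these pairs the summits were within 250 bp of each other, with a median gap of 203 bp. The same replicate 2 peak covered both summits in 22 pairs and the same replicate 3 peak in 10, so the members of many pairs share 1 replicate peak and are not independent. The pairs included sor-1 (650 and 169), tos-1 (616 and 155), W06H8.6 (571 and 122), H41C03.3 (534 and 260), egg-5 (513 and 289), swsn-7 (510 and 137), eat-16 (458 and 312), mog-4 (428 and 164) and lin-59 (411 and 224). In all, 56 single-direction peaks overlapped the interval of another one.

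Single-direction peaks stood more often at the first gene of a close run than annotated genes in general. The 613 peaks had 581 different nearest genes. Of these, 183 (31.5%, 27.9 to 35.4) were followed within 500 bp by a gene on the same strand, against 19.3% of all autosomal coding genes. A gene preceded within 500 bp on the same strand was as frequent as in general, with 121 (20.8%, 17.7 to 24.3) against 19.4%. First in a close run, with a neighbour behind it and none before, were 125 (21.5%, 18.4 to 25) against 14.1% of all. The rule removes windows shared by close opposite genes, so the set of all autosomal coding genes is not a like baseline for these shares. The sources hold no operon annotation, so the runs are defined by spacing alone, and the difference was not tested.

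The gene before the nearest gene was on the same strand at 373 peaks (60.8%; 54.4% of all autosomal coding genes) and on the opposite strand at 240. The rule bears on this, because it removes windows shared by close opposite genes. The gap to that gene had a median of 818 bp on the same strand and 2978 bp on the opposite one. The median signal was 139 (133 to 148; 77.3 in replicate 2 and 64.9 in replicate 3) with a same-strand neighbour and 156 (145 to 165; 91.3 in replicate 2 and 69.8 in replicate 3) with an opposite one.

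Genes were grouped in 27 lists by patterns in their names, and each share is read against the 3.49% of all autosomal coding genes that were served. The share was above that in 18 lists and below it in 9. Among the 18, the intervals of the chaperone, proteasome, V-ATPase and splicing factor lists include 3.49%. So do those of the histone, ubiquitin conjugation, RNA polymerase and secretory pathway lists. The lists together held 104 of the 601 served genes, and 497 were in none. Enrichment was not tested, and intervals of small lists are wide. Some served genes of the lists had the summit within 100 bp of a small RNA gene and were counted all the same. Near snoRNA genes these include mrpl-23 (55 bp), fbxa-83 (75 bp) and sre-23 (63 bp). Near snRNA genes they include snr-4 (51 bp), eif-2Bgamma (45 bp) and cox-6A (25 bp).

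Cytosolic ribosomal protein genes were served at 15 of 79 (19.0%, 95% Wilson interval 11.9 to 29.0). Any promoter peak was found at 46 of the 79, against 1226 of all 17242 autosomal coding genes. The single-direction peaks thus accounted for 32.6% of the ribosomal genes with a peak, against 49.0% over all genes with a peak. After rpl-3 and rpl-35 the strongest was rps-28, of the small subunit, 451 bp upstream with 356 (200 in replicate 2 and 169 in replicate 3). The 15 ran down to 102 at rpl-6 and lay between 139 and 451 bp upstream, with none downstream. Mitochondrial ribosomal protein genes were served at 6 of 70 (8.57%), led by mrps-35 (287), mrpl-23 (205) and mrpl-15 (190). Translation factor genes had 4 of 41 (9.76%), led by the initiation factor 3 subunits eif-3.C (270) and eif-3.B (219), with eif-2Bgamma at 129. Without replicate 3 their share was 4.88%. Of the aminoacyl-tRNA synthetase genes, kars-1 alone was served, 1 of 32 (3.12%), and none without replicate 3.

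Genes of energy metabolism and protein quality control were served at shares between 5.88% and 12.1%. Respiratory chain genes had 5 of 46 (10.9%), where after cox-5B and cox-5A the next was cox-6A (149), with 117 in replicate 2 and 26.6 in replicate 3. Genes of glycolysis and the citric acid cycle had 4 of 33 (12.1%), all weak, with dld-1 (125), hxk-3 (123) and aldo-1 (100) the highest. Chaperone genes had 4 of 57 (7.02%), with hsp-1 (556), hsp-70 (250) and dnj-9 (187) first. The 4 were 21.1% of the 19 chaperone genes with any promoter peak, against 49.0% over all genes with a peak. Proteasome genes had 3 of 33 (9.09%): rpn-11 (176), pbs-3 (110) and pas-1 (108). Genes of ubiquitin conjugation had 4 of 48 (8.33%), led by the ligase gene wwp-1 (290), ubc-3 (215) and ubc-25 (160), and V-ATPase genes 1 of 17 (5.88%). Several of these shares rest on few genes. With a window of 500 bp upstream to 100 bp downstream the V-ATPase share was 0%, and from the strongest replicate 2 peaks alone it was 11.8%. Among the upper 50% of the reproducible peaks 1.75% of all autosomal coding genes were served. There the glycolysis and citric acid cycle share was 0% and the proteasome share 3.03%. The proteasome share was also 3.03% without replicate 2, against 3.31% of all autosomal coding genes in that setting.

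Autophagy genes had the highest share, 5 of 21 (23.8%, 10.6 to 45.1). They were atg-9 (200; 98.4 in replicate 2 and 91.3 in replicate 3), lgg-1 (199; 97.6 and 109), lgg-2 (180; 68.1 and 114), atg-18 (155) and epg-4 (114). The products of lgg-1 and lgg-2 are the ubiquitin-like proteins that coat autophagosomes. Of the 6 autophagy genes with any promoter peak, 83.3% were among the served, against 49.0% over all genes with a peak. Muscle genes had 5 of 34 (14.7%), and these were all of the 5 muscle genes with a promoter peak: unc-112 (245), a protein of muscle attachment sites, unc-60 (139), unc-89 (116), unc-15 (116) and act-2 (99.7). The shares of peaked genes in the autophagy and muscle lists rest on few genes. In whole animals a peak does not say which tissue it came from.

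Nuclear pore and transport genes had 7 of 40 (17.5%, 8.75 to 31.9), led by the importin gene imb-3 (235), the pore gene npp-8 (192) and imb-2 (162). Cell cycle and replication genes had 7 of 73 (9.59%), with cdc-48.1 (691), which this list takes in by its name, then mcm-10 (261) and cdk-7 (260). Tubulin and motor genes had 5 of 42 (11.9%), with the beta-tubulin gene tbb-2 (238), the alpha-tubulin gene tba-2 (195) and the dynactin gene dnc-1 (164) the highest. RNA polymerase and general transcription factor genes had 5 of 67 (7.46%), led by taf-12 (274), rpb-11 (167) and the Mediator gene mdt-22 (145). Some peaks counted for 2 lists, because the peak of rpac-19 (116) also served tbg-1 and that of rpoa-12 (108) also served pas-1.

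Splicing factor genes had 3 of 48 (6.25%), namely snr-4 (276), rsp-6 (195) and rsp-8 (166). Genes of the secretory pathway had 4 of 51 (7.84%), with sec-61.G (434), sar-1 (157) and trap-1 (126) first. Histone genes were near the general share with 3 of 76 (3.95%): his-37 (730), the linker histone gene hil-1 (196) and his-72 (110), an H3.3 gene whose summit had no replicate 3 peak over it. Without replicate 3 the histone share was 1.32%. Homeobox genes also were, at 2 of 59 (3.39%).

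The remaining lists had shares below 3.49%. The intervals of the nuclear hormone receptor, collagen, neuropeptide and insulin, and cytochrome P450 lists include that value. Chemoreceptor genes had 1 of 1143 (0.0875%, 0.0154 to 0.494), sre-23, whose summit was 63 bp from a snoRNA gene and 622 bp upstream of sre-23. F-box and MATH-BTB genes had 3 of 395 (0.759%, 0.259 to 2.21), fbxb-72 (152), fbxa-83 (123) and btb-14 (116). Nuclear hormone receptor genes had 5 of 246 (2.03%, 0.871 to 4.67), with nhr-49 (169), a regulator of fat metabolism, above nhr-88 (111) and nhr-105 (109), and cuticle collagen genes 2 of 146 (1.37%, 0.376 to 4.86). From the strongest peaks of 1 replicate alone the receptor share was 1.22% without replicate 2 and 0.813% without replicate 3, and the collagen share was 0% without replicate 2. None was served among 237 C-type lectin genes, which allows a share of up to 1.27%, and 1.60% by the Wilson interval. The same held for 106 neuropeptide and insulin genes (up to 2.83%, and 3.50% by the Wilson interval). Nor was any of 67 cytochrome P450 genes served (up to 4.48%, and 5.42% by the Wilson interval).

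**Figure D3:**
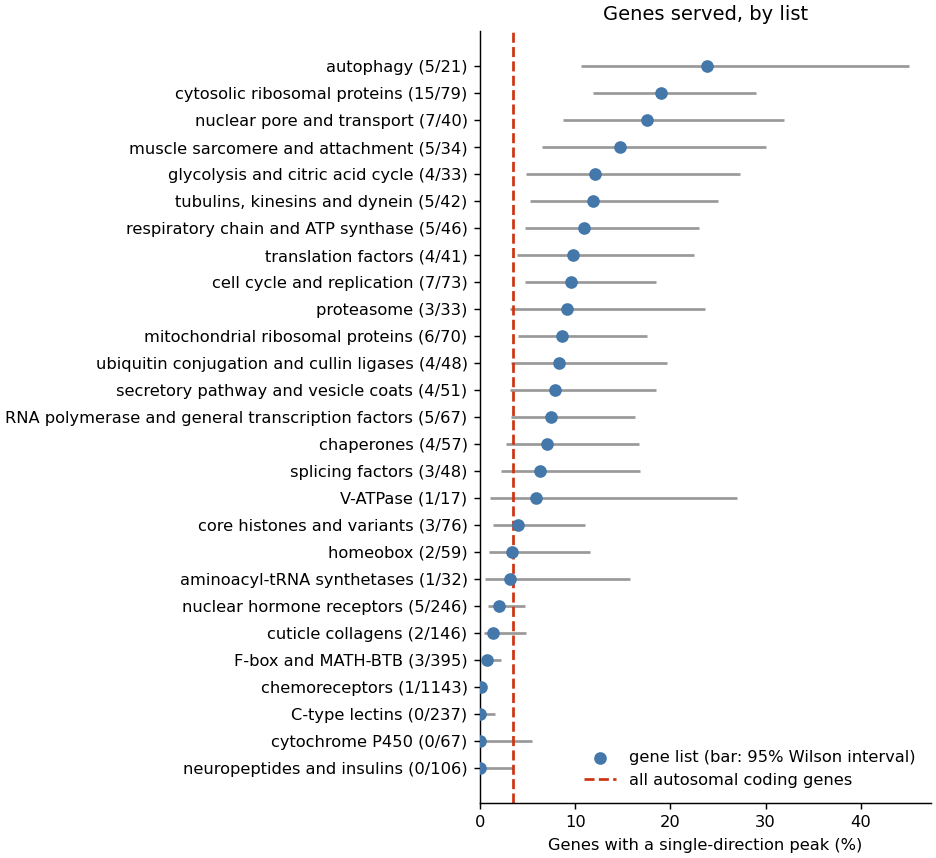
Share of autosomal genes with a single-direction promoter peak on the x axis for the 27 gene lists, with genes served and genes in the list in brackets, points for the share and bars for its 95% Wilson interval. The dashed line is the 3.49% of all 17242 autosomal coding genes; autophagy (23.8%) and cytosolic ribosomal protein genes (19.0%) stand highest, and 3 lists are at 0.

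The gene of the tagged protein was not among the served. K12H6.12 (II, 2808156 to 2812860, plus strand) had its nearest reproducible summit 55416 bp upstream, with a signal of 120. The transgene marker gene unc-119 (III, 10902641 to 10908935, plus strand) had one 647 bp downstream of its 5' end, outside the window, with 105.

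Nearly all single-direction peaks were seen in both replicates, but their order differed. A peak of replicate 2 covered 611 summits, one of replicate 3 602, and both 600 (97.9%, 96.4 to 98.8). The replicate lists are long and reach weak peaks, and the reproducible list was itself drawn from the replicates, so a high share is partly built in. Taking from each replicate only as many of its strongest peaks as the reproducible list holds, 517 summits were covered in replicate 2 (84.3%), 486 in replicate 3 (79.3%) and 412 in both (67.2%, 63.4 to 70.8). The Spearman correlation of the signals was 0.525 and the Pearson correlation of their log2 values 0.599, over 600 peaks, as a description of peaks from the same 2 libraries.

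At those 600 peaks replicate 2 over replicate 3 had a median ratio of 1.2 and the log2 ratio had an SD of 0.63. The lists are not on 1 scale, so unevenness is counted from that median. Over 2-fold from the median ratio were 56 (9.33%), 38 of them toward replicate 2 and 18 toward replicate 3. Where 1 replicate peak covers 2 summits, both summits take its value. At genes with 2 peaks this held for 22 pairs in replicate 2 and for 10 in replicate 3. How far this shifts the 38 and 18 was not tested. The most uneven toward replicate 2 were the weaker summit of eat-16 (325 in replicate 2, 33.0 in replicate 3), ppm-2 (200 against 21.9), cept-2 (18.3 in replicate 3 and a ratio of 8.25), Y18D10A.4 (207 against 29.7) and mrpl-55 (102 against 16.5). Toward replicate 3 they were mstr-1 (36.3 in replicate 2, 95.5 in replicate 3), cnk-1 (58.1 against 143), W09D10.5 (27.1 against 66.3), F22B7.9 (41.1 against 98) and C09G9.1 (43.5 against 95.9). The 325 of eat-16 is the same replicate 2 peak that covers its stronger summit. At ppm-2 the pooled signal was 139, and whether its 200 belongs to a neighbouring summit was not tested. These 10 were picked for their ratios after the values were seen.

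The 13 summits without a peak in both replicates were eat-16 (458), F08G2.5 (251.5), dnbp-1 (171), F58D5.5 (149), the weaker summit of W06H8.6 (122), C24F3.2 (111), his-72 (110), pdtf-1 (107), Y48C3A.20 (105), K11D12.14 (104) and Y39B6A.5 (101.3), which lacked replicate 3, and plrg-1 (139) and hrpr-1 (98.1), which lacked replicate 2.

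**Figure D4:**
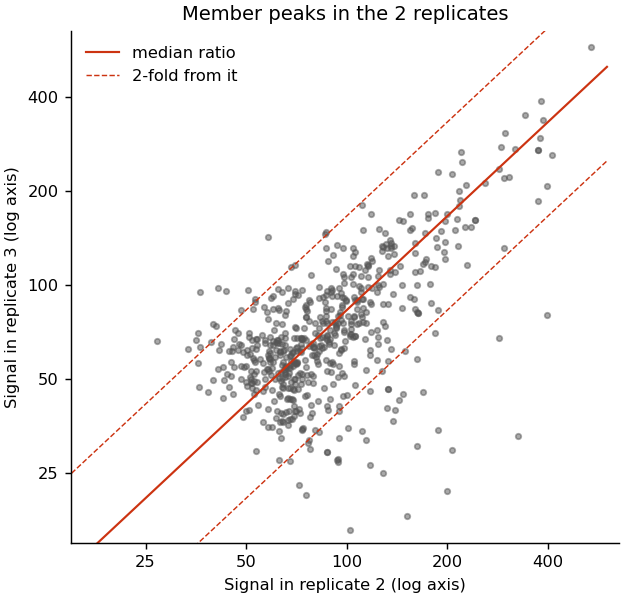
Signal of each of the 600 single-direction promoter peaks covered in both replicates, replicate 2 on the x axis and replicate 3 on the y axis, both log axes. The solid line is the median ratio of 1.2 and the dashed lines lie 2-fold from it; the points that stray furthest are low in replicate 3.

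Base composition and short motifs were not part of the rule. Within 100 bp to either side of the summit, single-direction peaks had 44.2% ± 7.0 G and C (SD over 613 windows), against 34.2% ± 6.6 in windows of the same length centred 274 bp upstream of all 17242 autosomal coding genes, the peaks' genes included. The GA repeat GAGAGA, searched on both strands, was in 41.9% of the peak windows (38.1 to 45.9) and in 12% of the promoter windows. The 9-base CTGCGTCTC was in 16% (13.3 to 19.1) and 1.61%. Higher shares at the peaks were also found for CCGCCC, at 11.6% against 3.97%, and for the palindrome CACGTG, at 8.32% against 3.11%. The T-rich and A-rich motifs went the other way, with TATAAA at 12.9% against 24.3%, TGATAA at 8.97% against 19.9%, TTTTTT at 50.6% against 68.9% and TTTCAG, the 3' splice site consensus, at 18.9% against 34.1%. A match describes the letters of a window and is no proof of a site.

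Base composition moved with part of this. In windows of 40 to 50% G and C only, 309 at peaks and 2737 at promoters, GAGAGA was in 47.9% against 20.2% and CTGCGTCTC in 17.5% against 4.90%. In the same windows the shares came close for CCGCCC (10.7% against 9.13%), TATAAA (11.3% against 12.8%) and TTTTTT (49.8% against 47.3%). They stayed further apart for CACGTG (10.4% against 6.03%), TGATAA (7.44% against 13.8%) and TTTCAG (18.4% against 26.5%). Without windows that overlap an exon, 359 at peaks and 11640 at promoters, GAGAGA was in 43.2% against 11.5% and CTGCGTCTC in 18.9% against 1.83%.

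All 6-mers found in at least 5% of the peak windows were also ranked by the ratio of the shares, with reverse complements merged. The highest were GCGCGC (12.6% at peaks against 2.27% at promoters), AGACGC (25.8% against 4.95%), CGTCTC (32.3% against 6.25%), GACGCA (28.5% against 5.59%) and GAGCGC (17.3% against 3.4%). Of these 5, 3 are pieces of the 9-base motif or of its reverse complement, and so overlap with it.

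These features were highest at the summit and fell to either side. In blocks of 50 bp to either side of a centre along the 613 peaks, G and C made up 47.4% at the summit, 38.7% and 39.2% in the blocks 100 bp to either side, and 34.4% to 36.9% from 300 bp on. The share of blocks with GAGAGA was 27.6% at the summit, and 19.2% and 20.1% in the blocks 100 bp to either side. It was 11.6% and 9.30% at 200 bp and 4.57% to 7.67% from 300 bp on. The share with CTGCGTCTC was 9.62% at the summit, 4.40% and 2.45% at 100 bp, and 0.326% to 1.14% from 300 bp on.

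**Figure D5:**
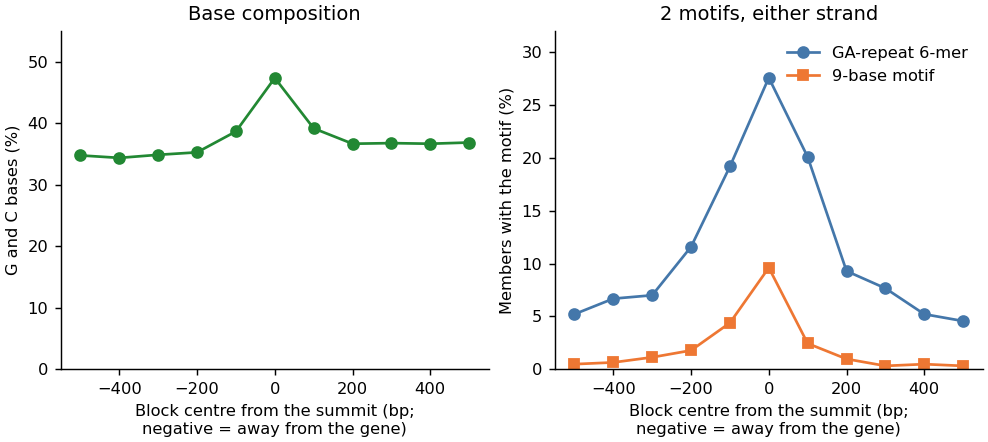
Left, mean G and C content, and right, share of the 613 single-direction promoter peaks whose block (50 bp to either side of its centre) holds the GA repeat of 6 bases (circles) or the 9-base motif (squares), by the distance of the block's centre from the summit on the x axis, negative away from the gene. All 3 curves peak at the summit, at 47.4%, 27.6% and 9.62%.

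Among the single-direction peaks themselves, the share with the GA repeat was highest in the strongest set and over 500 bp upstream. With the peaks cut into 4 sets at the quartiles of signal, it was in 36.4%, 41.2%, 40.5% and 49.7% from the lowest to the highest set, while CTGCGTCTC was in 16.2%, 13.7%, 17% and 17%. G and C moved with it, at 42.1%, 42.9%, 44.2% and 47.4% over the same sets. By distance GAGAGA was in 51.8% at over 500 bp upstream, 39.2% at over 250 and up to 500 bp, 36.0% nearer upstream and 45.1% at the end or downstream, where G and C made up 45.6%, 44.3%, 42.7% and 45.6%. The part of base composition in these shares was not tested. Both motifs were in 70 peaks, GAGAGA alone in 187, CTGCGTCTC alone in 28 and neither in 328. The median signals of these sets were 144, 158, 156 and 139.

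The GA repeat was in 41.9% of single-direction peaks (38.1 to 45.9), against 27.3% of divergent (22.6 to 32.6), 56.6% of intronic (50.8 to 62.1) and 62.7% of distal intergenic peaks (57.5 to 67.7). For CTGCGTCTC the shares were 16% in single-direction peaks (13.3 to 19.1), 8.22% in divergent (5.63 to 11.9), 20.0% in intronic (15.8 to 25) and 21.3% in distal intergenic ones (17.3 to 26.0). On both measures the share of single-direction peaks stood between those of divergent promoter peaks and of peaks outside promoters. For CTGCGTCTC the interval of single-direction peaks overlaps those of intronic and distal intergenic peaks. G and C moved with the motif shares, at 44.2%, 42.4%, 47.2% and 46.4% for single-direction, divergent, intronic and distal intergenic peaks. Its part in the differences between classes was not tested.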

How the data were processed

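As named and described in the deposit, the data are 4 lists of peaks on ce11. There is 1 for each replicate (27073 and 30000 peaks, called per sample) and 1 called on both replicates pooled (30000). The other list holds the 2268 reproducible peaks thresholded by irreproducible discovery rate. All 613 single-direction peaks are in the pooled list unchanged. The deposited signal of a peak is a score of unstated scale. The deposited significance is a −log10 q-value, at most 3.50 in the reproducible list, and ranks nothing here. Caller, aligner, filters and IDR threshold: not given in the sources used here. Genes came from Ensembl release 115 (WBcel235, the same assembly as ce11) and sequence from RefSeq, and 0 peak ends lay beyond a chromosome. Per-sample columns left unused numbered 0.

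Computation used Python 3.11.15, numpy 2.4.6, pandas 2.3.3 and SciPy 1.17.1. A replicate covered a summit if one of its peaks lay over it. Shares have 95% Wilson intervals, medians order-statistic intervals, and a count of 0 the limit of 3 divided by the number of genes. The assignment of peaks to genes was tested on simulated peaks. Named genes were those of the 25 strongest peaks, the 3 strongest of each list with 3 or more served genes, the 5 strongest within 25 bp of the 5' end and downstream of it, those at the limits of the rule, K12H6.12 and unc-119; others, such as the sole served gene of a list, were named after their values were seen. Members and lists were chosen with earlier results of these data known. Alternatives tried were other promoter windows, tRNA distances and 5' ends, the stronger 1134 peaks, close summits counted once, each replicate alone, and other overlaps between replicates.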

Additional observations from a re-analysis of the deposited data

How the results depend on the processing

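Of 74 recomputed values of 8 main results, 60 stayed within their interval or within 1.5 times the count, and 14 moved. With a window of 500 bp upstream to 100 bp downstream the median distance was 208 bp, the share from 300 bp upstream to the end 66.9% and the share serving 1 gene 99.0%. With 2000 bp upstream to 500 bp downstream these were 384.5 bp, 32.2% and 89.8%. Both follow from the window's own width, which also changes the members: 428 and 504 of the 613 peaks remained. The upper 50% of the reproducible peaks by signal left 303 single-direction peaks and 302 genes by construction, with 94.4% upstream and a median signal of 196. From the strongest peaks of 1 replicate alone, as many as in the reproducible list, the median signal was 68.5 without replicate 2 and 82.0 without replicate 3, on those lists' own scales, and 493 of the 601 genes were still served in each case. Coverage in both replicates was 94.0% when a replicate summit had to lie within 100 bp, and 67.2% among the strongest of each at equal number. No paired analysis was possible because there is only 1 group. Of 108 recomputed list shares 18 moved. Against the background recomputed in each setting, V-ATPase and histone genes were no longer above it with the narrower window, nor glycolysis genes among the stronger 50%, proteasome genes without replicate 2 or histone genes without replicate 3. In each setting 8 of the 9 lists below the background stayed below it. The exceptions were aminoacyl-tRNA synthetase genes with the narrower window (6.25% against 2.92%) and among the stronger 50% (3.12% against 1.75%), and homeobox genes without replicate 2 (3.39% against 3.31%) and without replicate 3 (5.08% against 3.38%). Among the stronger peaks muscle genes had 2.94%, against a background of 1.75%, and without replicate 2 cuticle collagen genes had 0%. In windows of 50 bp to either side all motif shares were lower, as shorter windows hold fewer matches. The windows without exons and those of 40 to 50% G and C were chosen after seeing the data. Depth is unknown, so a peak's absence cannot be set against a detection limit.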
